A study of Homo sapiens with 16 samples.

Results

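Histone lysine methyltransferases of the H3K4 and H3K36 classes write marks that accompany transcription. Methylation of histone H3 at lysine 4 marks promoters and enhancers, and methylation at lysine 36 marks transcribed gene bodies and broad intergenic domains. Their genes carry some of the longest coding exons in the human genome. N6-methyladenosine (m6A), the modification measured here, is laid down on nascent mRNA by the METTL3-METTL14 complex within the sequence context DRACH (D is A, G or T, R is A or G, and H is A, C or T), and is known to lie mostly in long internal exons and around stop codons.

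The 10 genes described are KMT2A, KMT2B, KMT2C, KMT2D, KMT2E, SETD1A, SETD1B, SETD2, NSD1 and ASH1L. A region of the deposited merged list, or a peak of a single library, was counted as theirs when its summit lay between the annotated start and end of the gene on GRCh38. In total 83 of 36970 merged regions and 544 of 191974 peaks met this rule. The libraries came from C4-2B, cells of human prostate cancer that respond to the androgen receptor inhibitor enzalutamide, and from MDV-R, a resistant line derived from C4-2B by serial passage. Both lines are labelled wild type. RNA was taken at day 3 in 4 replicates per line, each with an m6A-immunoprecipitated (IP) and an unenriched input library, 16 libraries in all. The paper states that MDV-R cells were kept in medium with enzalutamide, and it names no drug in the medium of C4-2B. Line and drug exposure therefore cannot be told apart here. MDV-R is 1 derived line, so that a difference between the lines is a difference between these cultures. A different line is named in the sample titles of the MDV-R libraries, whose group was taken from the cell line field. Exonic summits lay in 8 of 10 prostate luminal markers in at least 3 lists of each line (KRT8 and KRT18 had none), and 8 of 9 urothelial markers had none in any list. The exception was UPK2, which overlaps the gene BCL9L and held a summit in every list.

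Each of the 8 peak lists was called by the authors for 1 IP library over its input. Lists held 13191 to 24746 peaks in C4-2B, with the fewest in replicate 1, and 23880 to 30645 in MDV-R. The number of tags (unique, deduplicated reads) was recovered from the peak statistics as 0.864 to 1.21 M per IP library (M is 1000000 tags) in C4-2B and 0.897 to 1.03 M in MDV-R. Input libraries held 0.901 to 1.23 M tags in C4-2B and 1.6 to 2.97 M in MDV-R. The IP signal of a region below is the number of IP tags that cover its strongest summit per 1000000 tags of that library, abbreviated CPM. It counts tags over 1 position and is therefore not raised by the length of a gene. Labels do not say whether replicates were separate cultures, so p-values measure only the spread between these samples.

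The sequence around the strongest summit is shown for the 5 genes in which a leading coding region had its summit within 50 nt of the same position in all 8 lists, and for KMT2C as a contrast. Each window holds 101 bases of coding exon, 5′ to 3′ on the strand of the gene on hg38, and capitals mark every DRACH pentamer.
KMT2A exon 27, chr11:118505474-118505574, plus strand: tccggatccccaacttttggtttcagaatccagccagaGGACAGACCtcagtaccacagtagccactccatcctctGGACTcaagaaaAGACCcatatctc
KMT2B exon 3, chr19:35720224-35720324, plus strand: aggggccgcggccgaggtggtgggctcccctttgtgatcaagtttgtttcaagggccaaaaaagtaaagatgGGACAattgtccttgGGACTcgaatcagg
SETD1B exon 11, chr12:121819478-121819578, plus strand: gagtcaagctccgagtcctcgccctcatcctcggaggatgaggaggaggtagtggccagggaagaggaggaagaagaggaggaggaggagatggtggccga
NSD1 exon 2, chr5:177135572-177135672, plus strand: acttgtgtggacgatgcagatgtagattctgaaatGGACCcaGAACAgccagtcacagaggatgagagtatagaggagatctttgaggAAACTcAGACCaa
ASH1L exon 3, chr1:155481855-155481955, minus strand: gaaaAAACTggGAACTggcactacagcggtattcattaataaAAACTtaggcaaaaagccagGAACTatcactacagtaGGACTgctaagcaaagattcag
KMT2C exon 52, chr7:152148580-152148680, minus strand: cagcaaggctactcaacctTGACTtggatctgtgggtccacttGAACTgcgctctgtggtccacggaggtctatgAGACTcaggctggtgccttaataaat
GGAC, the most frequent core of DRACH at m6A sites, occurred 2 times in each of the KMT2A, KMT2B and NSD1 windows and 1 time in that of ASH1L, but not in those of SETD1B and KMT2C. In NSD1 1 of the 2 is followed by G and is therefore not part of a DRACH pentamer. The SETD1B window held no DRACH at all, although its 8 summits fell within 3 nt of each other. The summits of KMT2B exon 3 spanned 24 nt over the 8 lists, and those of KMT2A exon 27, NSD1 exon 2 and ASH1L exon 3 spanned 49 nt each.

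Taken over all 10 genes, most peaks lay in long coding exons, but not in every gene. Of the 544 peaks, 386 (71.0%) had their summit in coding sequence, 42 in 3′UTRs, 17 in 5′UTRs, 13 in exons of non-coding transcripts and 86 in introns. Within coding sequence, 329 of 386 summits (85.2%) fell in exons of at least 400 nt. These are 60.5% of all peaks. By gene the share of peaks in long coding exons was highest in SETD2 (44 of 44), KMT2C (87.1%) and NSD1 (84.2%), and it was over 50% in 7 genes. It was 31.4% in SETD1A, 31.5% in SETD1B and 40.0% in KMT2E. The genes have 42 coding exons of this length, and 37 of them (88.1%) held a summit in their coding part in at least 1 list and 28 (66.7%) in all 8 lists. Among the 273 shorter coding exons, 18 (6.59%) held a summit in any list and none did in all 8. Expressed per length, long exons had 0.753 ± 0.0522 summits per kb of coding sequence (SD, n = 8 lists) and short exons 0.187 ± 0.0977. The range over the lists was 0.641 to 0.806 for long and 0.0525 to 0.368 for short exons, so that the ranges did not overlap. GGAC itself was about as dense in both, with 4.74 per kb in long and 4.23 per kb in short coding exons.

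Long exons held most summits beyond these genes too. In the 2987 protein-coding genes that held a coding summit in all 8 lists (all 10 methyltransferase genes among them), 80.5% of 5376 long and 4.59% of 25476 short coding exons held a summit. Per kb of coding sequence the 2987 genes had 0.958 ± 0.0345 summits in long and 0.113 ± 0.0458 in short exons (SD, n = 8 lists). The methyltransferase genes, at 0.753 and 0.187, were thus lower in long and higher in short exons on average. The 2987 genes were chosen for holding a coding summit, and the 2 sets were not tested against each other. In the methyltransferase genes 54.61 kb of coding sequence lay in long and 38.09 kb in short exons.

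**Figure D1:**
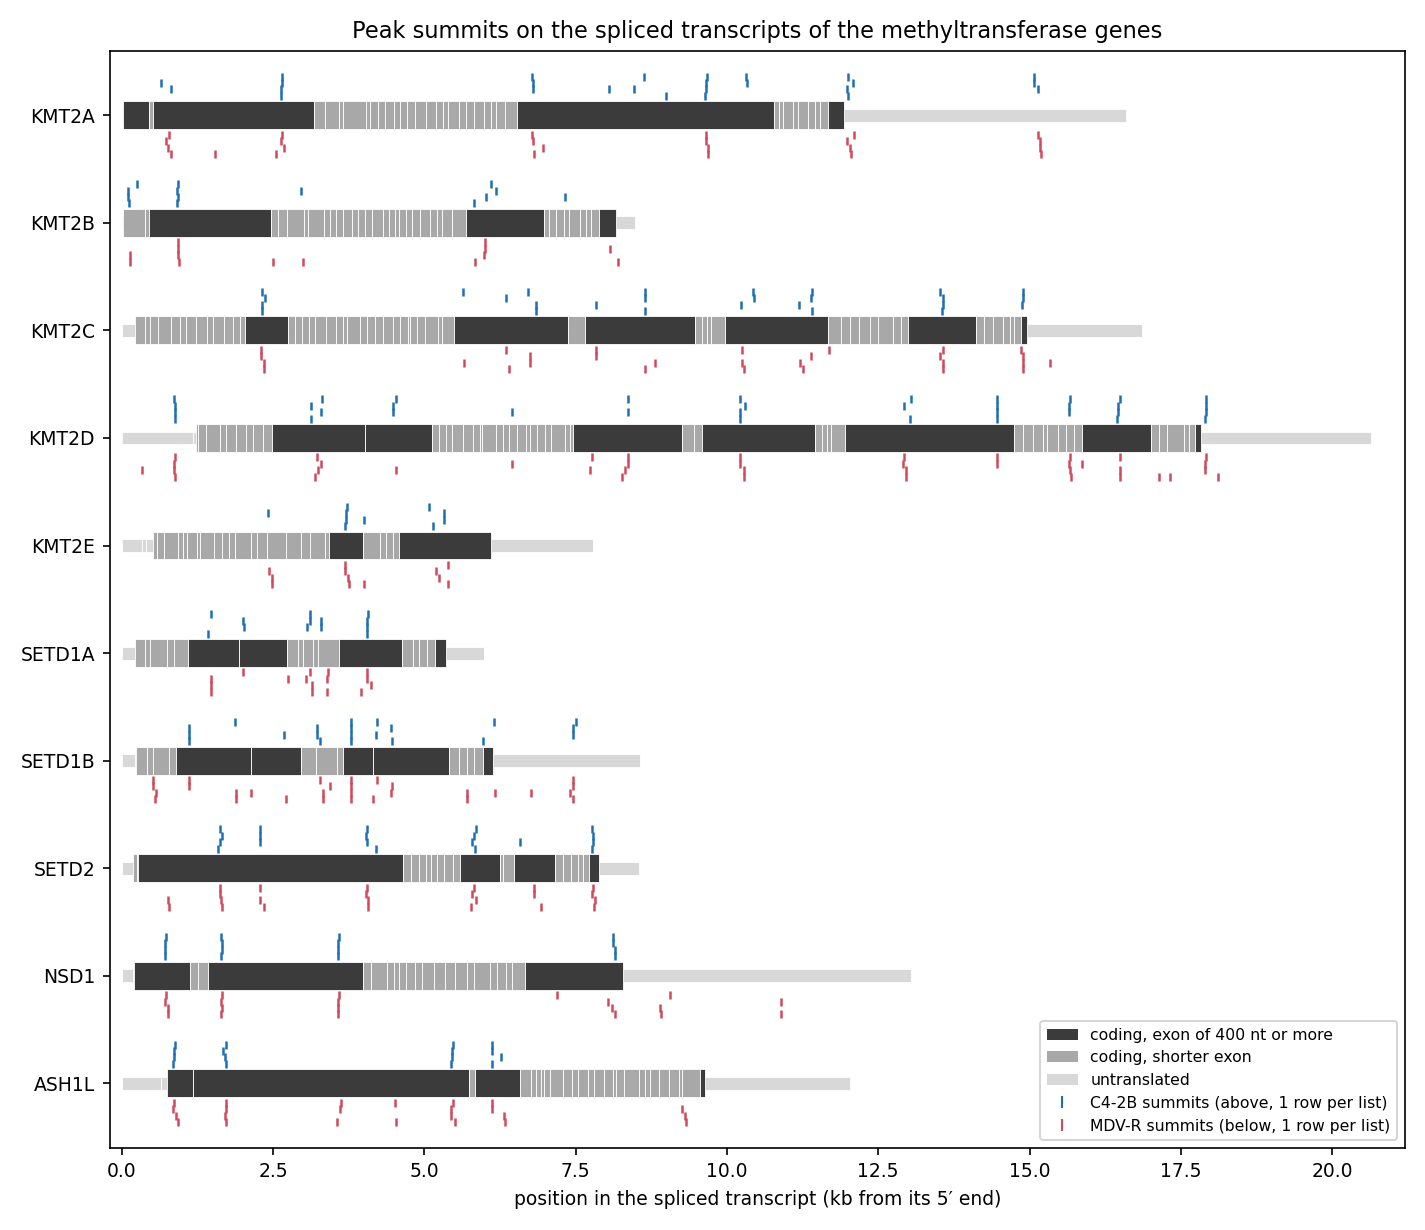
Spliced transcripts of the 10 genes drawn to scale, in kb from the 5′ end. Dark boxes are the coding parts of exons of at least 400 nt, and each tick is the summit of 1 peak, in C4-2B above and in MDV-R below with 1 row per list (replicate 1 nearest to the transcript). Ticks of both lines stack over many of the dark boxes, while the runs of short coding exons (mid-grey) hold fewer; summits in introns are not drawn.

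Several exons carried more than 1 reproducible summit. SETD2 exon 3 (4367 nt) held 24 summits over the 8 lists and up to 4 in a list, ASH1L exon 3 (4564 nt) and KMT2A exon 27 (4249 nt) 21 each, NSD1 exon 5 (2560 nt) 16 and KMT2A exon 3 (2654 nt) 15. The number did not rise with length in every case. Each peak has 1 summit, so that these are counts of peaks and need not be counts of methylated sites. KMT2D exon 40 (2790 nt) held 13 summits and KMT2B exon 3 (2021 nt) a single one in each list. Of the 5 long exons without a summit in their coding part, KMT2A exon 1 was a first exon, and the others, KMT2A exon 36, KMT2D exon 55, SETD1A exon 19 and ASH1L exon 28, were last exons with 276, 93, 174 and 92 nt of coding sequence. In KMT2A exon 36 and KMT2D exon 55 summits lay in the 3′UTR part.

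Around stop codons the genes differed among themselves. Strongest summits of regions called in all 8 lists lay 106 nt after the stop codon in KMT2A, 275 nt after it in KMT2D, 104 nt before it in SETD2 and 250 nt before it in NSD1. In KMT2C the last coding region, 67 nt before the stop, was called in 7 lists. A KMT2B region with its strongest summit 40 nt after the stop codon was called in 2 MDV-R lists and in no C4-2B list. In 1 list the summit in that exon lay in its coding part. In ASH1L a region 386 nt before the stop was called in 3 MDV-R lists. Regions of KMT2E and SETD1B, called in all 8 lists, spanned the stop codon, but their strongest summits lay 905 nt before and 1368 nt after it. No SETD1A region had its strongest summit within 400 nt of the stop codon.

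GGAC lay within 50 nt of 281 of the 544 summits (51.7%, 37.3% to 64.6% per list), and DRACH of 474 (87.1%). For the 386 coding summits alone the shares were 52.6% and 85.8%, beside 46.8% and 89.9% for all 54466 coding summits of the series. The same site recurs in up to 8 lists, so that these summits are not independent. Among the genes, KMT2B (76.7% of 30 summits), SETD2 (68.2% of 44) and SETD1A (66.7% of 51) had the highest shares with GGAC. KMT2C had the lowest, with 7 of 62 summits (11.3%). The median distance to the nearest GGAC was 106 nt in KMT2C against 14.5 nt in SETD2. Only summits with a GGAC inside the distance searched (499 of the 544 over all genes) entered these medians, which can only lower them. Parts of KMT2C are also present in the genome as pseudogene copies, and reads that match both are lost when unique alignments are kept.

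The question of the study, whether m6A differs between sensitive and resistant cells, was asked of each region by its calls in the 2 sets of 4 lists. Of the 83 regions, 81 were called in at least 1 list and 42 (51.9% of the called) in all 8, against 25.9% of all 36076 called regions. No methyltransferase region was called in all 4 lists of one line and in none of the other. Over all regions 3.68% had a peak in every MDV-R list and no C4-2B list, and 1.22% the reverse. By two-sided Fisher's exact test, the lowest p among the methyltransferase regions was 0.143 and the lowest Benjamini-Hochberg adjusted p was 0.997; with 4 lists per line the smallest p this test can give is 0.0286, and no region of the series passed after adjustment.

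Unequal calls ran mostly one way, with 35 regions called in more MDV-R lists, 2 in more C4-2B lists and 44 in as many of both. MDV-R lists also held more peaks on average. The split of unequal calls over all regions was not counted, so that this one is no result about these genes. The mean percentile of −log10 p within a list ranged from 3.06 to 86.8 among the 37 unequal ones (median 39.7), the highest being a KMT2C region missing in C4-2B replicate 1 alone. Some 62 regions were called in both lines, 18 in MDV-R lists alone (28.3% of all called regions were) and 1 in a C4-2B list alone (13.3% of all were). Of the 18 regions, 10 were called in 1 list, 6 in 2 and 2 in 3, and 14 of them were called in MDV-R replicate 4, which has the longest list. They rested on 12 to 41 IP tags, and their mean percentile ranged from 3.06 to 46.7, against 46.3 to 99.8 for the 42 regions called in all 8 lists. The 2 that were called in 3 MDV-R lists and no C4-2B list were both in ASH1L, in exon 27 (chr1:155338201-155338572, 25.2 ± 1.38 CPM in MDV-R, SD, n = 3) and in exon 3 (chr1:155479871-155480549, 37.2 ± 4.45, n = 3). In SETD1B exon 4 (chr12:121805632-121806071) 1 C4-2B and 4 MDV-R lists had a peak. Of the 7 regions called in 7 lists, all 7 were missing in C4-2B replicate 1, the shortest list. Without that list 49 regions were called in every remaining list.

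Where the peak was present in every list, its IP signal overlapped between the lines in most regions. Testing with limma over 9319 regions called in all 8 lists, 2 of 42 methyltransferase regions had a higher IP signal in MDV-R at an adjusted p below 0.05 and none a lower one. Over all tested regions 19.8% were higher and 14.7% lower, a split that turned to 23.3% and 27.0% after each library was centred on its median. At an unadjusted p below 0.05, 3 of the 42 regions were higher and 1 was lower, against 42.8% of all regions in either direction. The log2 difference (MDV-R minus C4-2B) ranged from -0.36 to 0.57 among the 42 regions with a median of 0.16, beside a median of 0.06 over all regions, and 37 of 42 were above 0 (56.1% of all regions were). After centring the median was 0.07 with 30 of 42 above 0, beside -0.02 over all regions. Without C4-2B replicate 1 it was 0.06 with 33 of 49 above 0, beside -0.02 over all regions. The values of the 2 lines overlapped in 37 of the 42 regions, and in the other 5 all MDV-R values lay above all C4-2B values. The share of such regions over all tested ones was not counted, so these counts are no result about the methyltransferase genes.

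The 2 regions that passed are in KMT2E and ASH1L. KMT2E exon 22 (564 nt, region chr7:105107142-105107913) had 39.8, 45.6, 55.7 and 52.1 CPM in C4-2B replicates 1 to 4 and 64.4, 66.9, 69.1 and 64.7 in MDV-R. All MDV-R values lay above all C4-2B values. The difference was 0.47 ± 0.16 on the log2 scale (SE, limma adjusted p = 0.0181). Its adjusted p ran from 0.00211 to 0.0688 over 14 alternative settings, 11 of which kept it below 0.05. For single regions 1 of the 14, regions wholly inside the gene, reuses the reported fit, so that its outcome was fixed in advance. The ASH1L region (chr1:155467940-155468676) is intronic, 8447 nt from the nearest exon, and had 19.1, 26.7, 24.7 and 26.6 CPM in C4-2B and 27.7, 36.1, 36 and 44.6 in MDV-R. Here, too, the lines did not overlap, at a low signal of 23 to 40 tags per library. Its difference was 0.57 ± 0.17 (SE, limma adjusted p = 0.00669). Of the 14 alternatives, 13 kept it, the one that reuses the reported fit among them, with adjusted p up to 0.058. Neither region reached a difference of 1 on the log2 scale, and both were singled out after their values were seen.

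Among the H3K4 methyltransferases of the MLL1/MLL2 branch, KMT2A maintains HOX gene expression and is known for its rearrangements in leukaemia, and KMT2B trimethylates H3K4 at promoters, including bivalent ones. KMT2B (ENSG00000272333, chr19:35717973-35738880) carried 1 of the strongest peaks of the whole series, with a mean percentile of 99.6. Its exon 3 (2021 nt, region chr19:35719251-35721774) had 138, 178, 171 and 193 CPM in C4-2B and 188, 160, 175 and 182 in MDV-R. The lines overlapped, at 170 ± 23.2 and 176 ± 11.7 (SD, n = 4 each), with a log2 difference of 0.06 ± 0.16 (limma adjusted p = 0.819). A second long exon, exon 28 (1294 nt), had 61.3 ± 11.9 and 78.5 ± 10.7, a difference of 0.37 that did not pass (adjusted p = 0.0835) but did in 4 of the alternatives, by the replicate block among them (0.0497). The first exon of KMT2B had a peak in 4 lists of C4-2B and 2 of MDV-R. Its signal was higher where MDV-R had a peak, at 38 and 43.5 CPM in replicates 3 and 4 against 19.3 to 24.9 in C4-2B. The other MDV-R lists have no value there, so that a direction of signal between the lines cannot be read.

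KMT2A (ENSG00000118058, chr11:118436456-118526832) had the lowest leading signal of the 10 genes. Its highest-ranked region lay in the 3′UTR part of exon 36 (chr11:118521779-118522498), with 42.3, 62.4, 53.6 and 48.6 CPM in C4-2B and 49.9, 63.7, 54.5 and 58.0 in MDV-R. Replicate 2 was the highest of both lines and the ranges overlapped almost entirely (adjusted p = 0.55). Exon 27, whose sequence is shown above, had 58.6 ± 5.19 and 65.2 ± 6.63, and exon 3 had 63.3 ± 13.9 and 60.4 ± 7.88 at its downstream region, where the annotation also places the gene ENSG00000285827. The lncRNA TTC36-AS1 overlaps the 3′UTR region. Peaks were called without regard to strand, so that reads of overlapping genes cannot be told apart. Of the 83 regions of the 10 genes, 11 had their summit in another gene too.

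KMT2C and KMT2D are the paralogous enzymes of the enhancer branch, which place monomethyl marks on H3K4 at enhancers and are frequently mutated in cancer. KMT2D (ENSG00000167548, chr12:49018975-49060794) held 14 regions, the most of the 10 genes, and 6 of them were called in all lists. The strongest lay in exon 49 (1141 nt, region chr12:49026292-49027596), with 76.3, 103, 97.5 and 111 CPM in C4-2B and 104, 108, 108 and 109 in MDV-R. Only C4-2B replicate 1 stood clearly below the other libraries (log2 difference 0.16 ± 0.16, adjusted p = 0.464). Exons 11, 35 and 40 had levels close to it, between 96.4 and 109 on average in C4-2B and 107 in MDV-R, within the spread of each other. The 3′UTR region had 90.1 ± 12 and 90.0 ± 9.11. Exon 32 (1812 nt) was weaker, with a peak in 2 lists of C4-2B and 4 of MDV-R.

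KMT2C (ENSG00000055609, chr7:152134922-152436644) had 7 regions, all of them at long exons or next to a coding exon. Its highest-ranked region (chr7:152158929-152159341) had its summit 30 nt outside exon 44, in an intron that GENCODE also lists as retained. It was not called in C4-2B replicate 1, and had 89.2, 91.1 and 103 CPM in C4-2B replicates 2 to 4 and 107, 114, 115 and 110 in MDV-R. These values did not overlap, but with a missing list the region was not part of the reported test. In the alternative without C4-2B replicate 1, which tested 49 methyltransferase regions, its IP signal did not pass. The coding exons 52, 43, 38, 36 and 14 were called in all lists, with means from 49.5 to 93.2 in C4-2B and from 60 to 112 in MDV-R. All 5 differences were positive, from 0.09 to 0.30, and none passed (adjusted p from 0.149 to 0.711).

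KMT2E (ENSG00000005483, chr7:104940943-105115019) belongs to the family by sequence, although its SET domain is not known to methylate histones. Its last exon (exon 27, 3195 nt, region chr7:105111872-105113555) had 115, 129, 150 and 142 CPM in C4-2B and 143, 175, 148 and 132 in MDV-R. The ranges overlapped (134 ± 15.4 and 150 ± 18.5, adjusted p = 0.485). The gene SRPK2 is also annotated at the summit of this region, so that its reads cannot be told apart from those of KMT2E. This region had the largest difference in fold enrichment of the 42, described below. An intronic KMT2E region (chr7:105012508-105014465), at which the lncRNA LINC01004 is also annotated, was the lowest of the 42 differences, with 51.5 ± 12.3 in C4-2B and 39.6 ± 5.44 in MDV-R (-0.36, adjusted p = 0.105). It passed in 2 alternatives, at -0.44 (adjusted p = 0.00799) after each library was centred on its median and at -0.52 (0.0145) without C4-2B replicate 1.

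SETD1A and SETD1B are the catalytic subunits of the SET1/COMPASS complexes, which lay down most H3K4 trimethylation at active promoters. SETD1B (ENSG00000139718, chr12:121804009-121832656) had 89 peaks in its 10 regions, the most peaks of any of the 10 genes, and 7 regions were called in all lists. Its exon 11 (492 nt, region chr12:121819238-121819870) had 93.7, 112, 128 and 124 CPM in C4-2B and 118, 143, 129 and 133 in MDV-R. Values overlapped (114 ± 15.3 and 131 ± 10.7, adjusted p = 0.355). Exons 6 and 12, with 94.0 ± 12.4 and 73.4 ± 10.3 in C4-2B, were the next, and exon 9, of 335 nt, held the only region of all 8 lists whose strongest summit lay in a coding exon under 400 nt. SETD1A (ENSG00000099381, chr16:30957294-30984664) had its strongest region over the adjoining exons 7 and 8 (850 and 786 nt, chr16:30964389-30966942). It had 61.3, 80.2, 71.8 and 83.4 CPM in C4-2B and 84.3, 86.1, 82.8 and 74.7 in MDV-R (adjusted p = 0.494). The summit moved between the exons over 748 nt from list to list. A region at the start of SETD1A (chr16:30956869-30959061) had 39.2 ± 5.75 and 41.0 ± 6.50 CPM over a low local background.

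Among the H3K36 enzymes, SETD2, the enzyme for H3K36 trimethylation on transcribed genes, NSD1, which dimethylates H3K36, and ASH1L, a further H3K36 dimethylase that counteracts Polycomb silencing, all had their leading regions in exons of 663 to 4564 nt. NSD1 (ENSG00000165671, chr5:177131830-177300213) led with exon 2 (944 nt, region chr5:177134825-177135981), the highest-ranked region of the 10 genes with a mean percentile of 99.8. It had 146, 178, 191 and 205 CPM in C4-2B and 171, 200, 171 and 181 in MDV-R. The means were 180 ± 25.2 and 181 ± 13.5, and the log2 difference was 0.01 ± 0.16 (adjusted p = 0.96). NSD1 exon 5 had 2 regions, with 138 ± 17.7 and 168 ± 10.8 at its downstream one (0.29, adjusted p = 0.153). SETD2 (ENSG00000181555, chr3:47016428-47164113) led with exon 12 (663 nt, region chr3:47083839-47084495), at 89.5, 128, 114 and 124 in C4-2B and 122, 124, 118 and 123 in MDV-R (adjusted p = 0.632). Its last coding region, in exon 21, was one of the few lower in MDV-R on average, with 53.2 ± 8.91 and 43.0 ± 1.58 (-0.30, adjusted p = 0.151). It passed after centring (-0.38, adjusted p = 0.00696) and without C4-2B replicate 1 (-0.38, 0.0203). ASH1L (ENSG00000116539, chr1:155335268-155563162) led with the 5′ part of exon 3 (region chr1:155481245-155482715). There C4-2B had 105, 126, 140 and 145 CPM and MDV-R 158, 169, 147 and 149, which did not overlap, and the difference of 0.28 ± 0.16 did not pass (adjusted p = 0.173).

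Ordered by IP signal in MDV-R, the leading regions ran from NSD1 (181), KMT2B (176), ASH1L (156), KMT2E (150) and SETD1B (131) through SETD2 (122), KMT2C (111) and KMT2D (108) to SETD1A (82.0) and KMT2A (56.6). Of neighbours in this order, NSD1 and KMT2B, ASH1L and KMT2E, SETD1B and SETD2, and KMT2C and KMT2D lay within the larger of their SDs of each other. These are tags over a single position and depend on both the abundance and the methylation of each transcript.

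**Figure D2:**
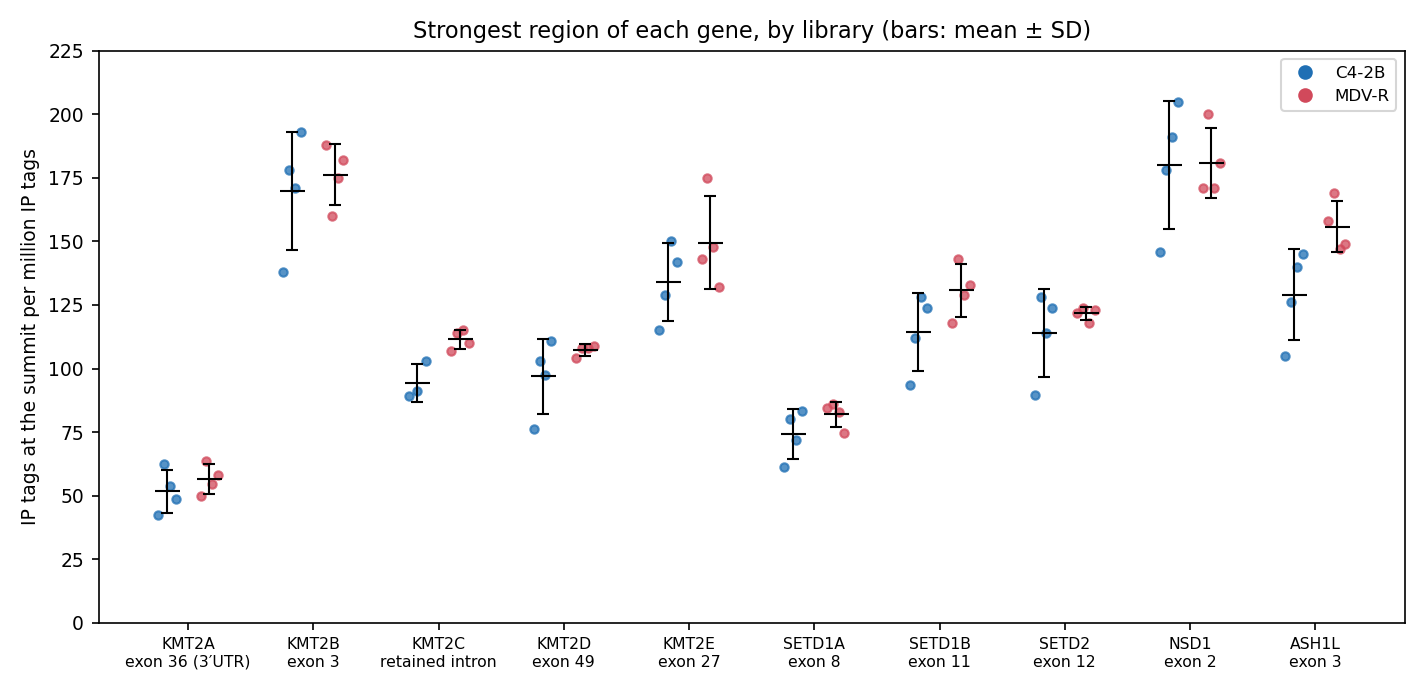
IP signal at the summit in CPM for the highest-ranked region of each gene, with each point 1 library and bars the mean ± SD (n = 4, but 3 for KMT2C in C4-2B). The lines overlap in 8 genes, and in KMT2C and ASH1L all MDV-R values lie above the C4-2B values. The share of such regions over all tested ones was not counted. The lowest C4-2B point is replicate 1 in all genes but KMT2C, where that library has no peak. Over all tested regions, too, its median IP signal was the lowest of C4-2B (43.9 CPM against 57.5 to 62.5).

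Fold enrichment, the ratio of IP to local background that the peak caller gives, was higher in MDV-R on average in 40 of 42 regions. None passed by limma at an adjusted p below 0.05 (3.39% of all tested regions were higher and 0.225% lower, 3.62% in all), and 14 regions had an unadjusted p below 0.05, all of them higher in MDV-R (25.2% of all regions in either direction). The median log2 difference was 0.57, beside 0.44 over all regions, of which 84.2% were above 0. The largest difference was that of KMT2E exon 27, where SRPK2 is also annotated. The enrichment of this region was 7.49, 15.4, 13.5 and 10.0 in C4-2B and 23.4, 27.3, 18.4 and 23.5 in MDV-R, without overlap (1.03 ± 0.36 on the log2 scale, adjusted p = 0.0676). NSD1 exon 2 reached the highest enrichment, with 10.9, 20.7, 17.2 and 27.8 in C4-2B and 30.7, 40.2, 18.9 and 50.8 in MDV-R, where replicate 3 lay within the range of C4-2B (adjusted p = 0.123).

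The local background, which comes from the input libraries and is scaled so that 1 is the library-wide average, moved in the opposite direction. It was lower in MDV-R on average in 39 of 42 regions, with a median log2 difference of -0.47 beside -0.48 over all regions. Over all tested regions only 24.3% had a difference above 0. None passed by limma (11.0% of all regions were lower and 1.66% higher), and 3 had an unadjusted p below 0.05, all lower in MDV-R (30.3% of all in either direction). In KMT2E exon 27 it was 43.3, 22.3, 30.3 and 39.4 in C4-2B and 15.2, 16.2, 21.4 and 13.6 in MDV-R. This was the only one of the 42 regions in which all MDV-R values lay below all C4-2B values (adjusted p = 0.0952). The share of such regions over all tested ones was not counted.

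The size of the input library also differs between the lines. The median background over the 42 regions was 29.1, 23, 22.4 and 23.1 in C4-2B replicates 1 to 4 and 16.9, 15.8, 27.8 and 11.7 in MDV-R. MDV-R replicate 3, whose input of 1.6 M tags is the smallest of that line, was within the range of C4-2B. Without it, 13 of the 42 regions had a higher enrichment and 9 a lower background in MDV-R at an adjusted p below 0.05 (over all regions 21.3% and 30.8%), among them KMT2B exon 3 (0.99 and -1.09 on the log2 scale) and NSD1 exon 2 (1.13 and -1.32). When each library was centred on its median over all tested regions, the median difference of the methyltransferase regions became 0.17 in enrichment and 0.02 in background, and none passed. Input size and line cannot be told apart here.

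**Figure D3:**
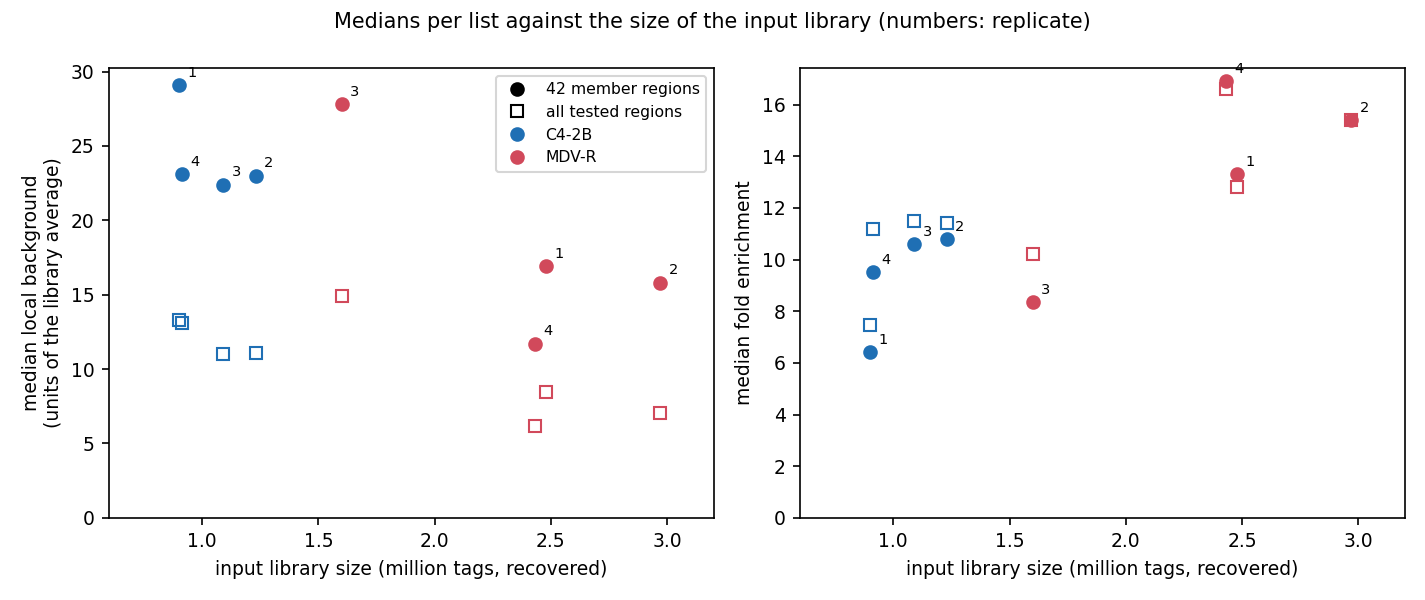
Median local background (left) and median fold enrichment (right) per list against the recovered size of the input library (M tags), for the 42 methyltransferase regions (filled circles, numbered by replicate) and all 9319 tested regions (open squares). MDV-R replicate 3 lies beside the C4-2B lists in both panels, and the methyltransferase regions follow all regions from list to list.

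**Figure D4:**
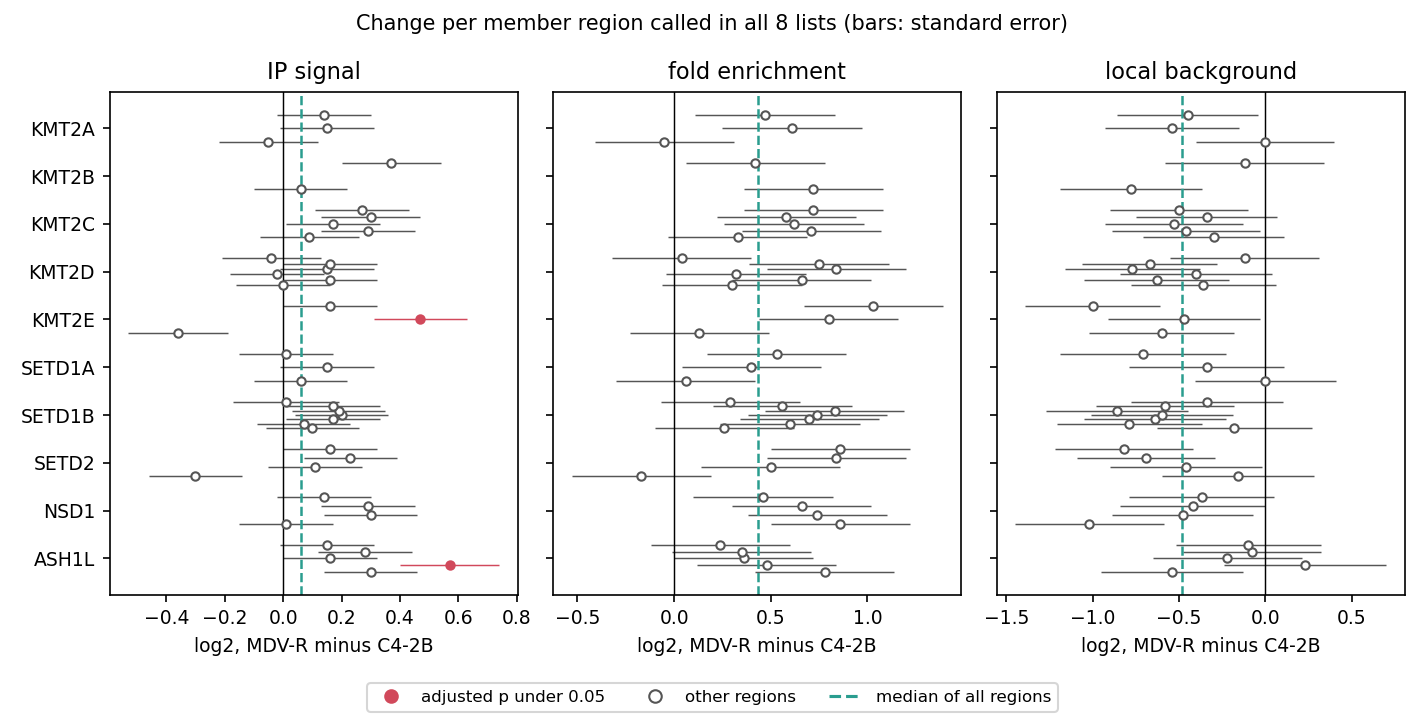
Log2 difference between the lines (MDV-R minus C4-2B) for each of the 42 regions called in all 8 lists, with the limma standard error, in IP signal, fold enrichment and local background. Filled points passed at an adjusted p below 0.05, which are 1 region of KMT2E and 1 of ASH1L in IP signal; the dashed line is the median of all tested regions (0.06, 0.44 and -0.48).

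Other genes of the same pathways were read in the same way, against the 34.5% of all tested regions that passed in IP signal, 3.62% in fold enrichment and 12.6% in local background, in either direction. COMPASS subunits and cofactors such as WDR5, MEN1 and KDM6A (15 genes) held 40 regions, 16 of them called in all lists. Of these 16, 4 had a higher and 1 a lower IP signal in MDV-R at an adjusted p below 0.05. The higher ones were 3 regions of NCOA6, a subunit of the KMT2C and KMT2D complexes (0.46 to 0.60 on the log2 scale), and 1 of PAXIP1, another subunit (1.00), and the lower one was also in PAXIP1 (-0.48). The demethylases of H3K4 and H3K36 (10 genes, 47 regions) had 12 tested regions, with 3 higher (KDM4A 0.54, KDM4C 0.50 and KDM5A 0.45) and 2 lower (KDM2A -0.84 and KDM4B -0.78). Other H3K36 methyltransferases and readers (13 genes, 42 regions) had 16 tested regions with 2 higher, in DNMT3A (0.46) and SETD5 (0.48), and none lower. In fold enrichment 1 region of PAXIP1 (1.34) and 1 of MSH6, a mismatch repair protein that reads H3K36 trimethylation (1.27), passed. The local background was lower in KDM2A (-1.68), KDM2B (-1.48), KDM4B (-1.82), MSH6 (-1.71) and the H3K36 dimethylase NSD2 (-1.28), and higher in KDM4C (2.00). The IP counts of 5 of 16 and 2 of 16 lay below the share over all regions and that of 5 of 12 a little above it, and none of the 3 is a result about these genes. No region of the 3 lists was called in 4 lists of one line and none of the other.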

How the data were processed

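MeRIP-seq, in which fragmented RNA is immunoprecipitated with an antibody to m6A and sequenced beside its input, was analysed from 8 peak lists and 1 merged list. Per the labels and methods, the authors used STAR 2.7.0 for alignment to hg38, kept unique, deduplicated reads with SAMtools 1.10 and called peaks per replicate over its input with MACS2 (3.0.0a6 in the labels), extending tags by 100 nt with a genome size of 300 Mb and no regard to strand. How peaks were merged is not given in the sources used here. The deposited lists hold fold enrichment (a ratio of IP pileup plus 1 over local background plus 1), −log10 p and q, and a score. The deposited score, 10 times the −log10 q, was not tested.

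Whole IP tags and the local background of each summit were recovered from the deposited ratio and −log10 p. Depths below are therefore reconstructed. Regions were annotated with GENCODE release 44 on GRCh38. A region's value in a list is that of its peak with the highest −log10 p. Log2 IP signal, fold enrichment and background were tested with limma 3.58.1 (R 4.3.3; lmFit and eBayes, MDV-R minus C4-2B, Benjamini-Hochberg over the 9319 regions with a value in all 8 lists). Calls per line were tested with Fisher's exact test (scipy 1.17.1), two-sided, over 36076 regions. Scripts were tested on simulated data. All regions called in 4 lists of one line and 0 of the other, those past an adjusted p of 0.05 with a log2 change of at least 1, and the region of each gene with the highest mean percentile of −log10 p were to be named; others that are named were chosen after their values were seen. The genes and lists were chosen with earlier results of these data known. Alternatives are given in the closing section.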

Additional observations from a re-analysis of the deposited data

Results flagged for a closer look

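In the 79 sets of 4 values examined, 2 held a library far from the other three, and chance alone gives about 1 in 20. The fold enrichment of KMT2E exon 22 in C4-2B was 13.7 in replicate 2 and 8.16, 8.32 and 9 in the others. The median local background over the 42 methyltransferase regions in C4-2B was 29.1 in replicate 1, the library with the shortest peak list, and 22.4, 23 and 23.1 in the others.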

How the results depend on the processing

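The number of methyltransferase regions with a changed IP signal, 2 in the reported fit, was 6 after each library was centred on its median and ran from 1 to 4 when libraries were left out one at a time, with 4 without C4-2B replicate 1 and 1 without C4-2B replicate 2 or MDV-R replicate 2, 3 or 4. For fold enrichment the count ran from 0 to 13 and for the local background from 0 to 9, with the highest values without MDV-R replicate 3. Regions called in every list of one line and none of the other numbered 0 to 1, with 1 without C4-2B replicate 2, MDV-R replicate 1 or MDV-R replicate 3. With the replicate block, 3 regions changed in IP signal and 0 in fold enrichment and background. Deviations of IP signal in same-numbered lists correlated at -0.0665 to 0.0436, so that no pairing by number was seen in IP signal. Fold enrichment and background were not checked in this way. Whether same-numbered samples were handled together cannot be told from these correlations. The ratio of IP signal to local background, an alternative added after seeing the data, gave 0 of 42 regions by limma, with 4 at an unadjusted p below 0.05.

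Centring turned the direction of the IP signal in KMT2B exon 3 (-0.03) and NSD1 exon 2 (-0.07), of the fold enrichment in ASH1L exon 3 (-0.05), and of the background in the leading regions of KMT2A (0.04), SETD1A (0.15), SETD2 (0.03) and ASH1L (0.41) and in KMT2E exon 22 (0.02). Leaving out libraries gave -0.04 to 0.12 and -0.08 to 0.08 for the IP signal of KMT2B exon 3 and NSD1 exon 2, and -0.24 to 0.14 and -0.23 to 0.57 for the background of ASH1L exon 3 and of its intronic region. None of these was called. The cause was not tested. Of 510 alternative values of single regions, of medians over the methyltransferase regions and of shares of summits, 476 were counted as unchanged. For single regions this meant the same direction and side of the threshold. For medians it meant a shift smaller than the SD between lists of a line. Values of single regions under the setting of regions wholly inside the gene reuse the reported fit and were unchanged by construction. At 0.864 to 1.21 M tags per IP library, regions of few tags can be missed in single lists, and absence from a list does not show that a site is unmethylated.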
